A study of Mus musculus with 8 samples.

Results

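The genes described here encode the machinery of cell division: the condensins that compact chromosomes, the kinases that start mitosis, the kinetochore and spindle that move the chromosomes, the checkpoint that times their separation, and the proteins that cut the cell apart. The set was given as a list of 54 mouse genes, chosen with earlier results of these data known. All 54 were found by symbol among the 55487 gene identifiers of each library, with Sgol1 annotated under its current name Sgo1. Their RNA was measured in pancreatic islets, picked by hand, from C57BL/6J mice, labelled female, that began a diet with 60% of calories from fat at 10 weeks of age and stayed on it for 2 weeks. The control group, Ide+/+, has an intact gene for insulin-degrading enzyme, and 5 libraries were sequenced from it. The other group, Ide-/-, lacks that gene, and 3 libraries were sequenced from it. The diet was the same in both groups, so no library shows either genotype on another diet. The labels call the samples biological replicates without saying how many animals each came from, so the p-values measure the spread between these samples.

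Most mitotic genes are transcribed from late S phase to mitosis and kept low in resting cells. Their promoters carry a short element, the cell cycle genes homology region (CHR), often downstream of CCAAT boxes that bind the factor NF-Y. The DREAM complex represses through the CHR in resting cells, and B-Myb and FOXM1 with the MuvB core activate through it in dividing cells. In adult islets few endocrine cells divide, and beta cell division rises with demands for insulin such as a fat-rich diet. Transcripts of these genes are therefore used as a readout of how much division a tissue contains. In whole islets, more dividing cells and more mitotic RNA per cell cannot be told apart.

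RefSeq promoter windows of GRCm38.p6, from 250 bases before to 50 bases after a start site, were at hand for 47 of the 54 genes. A CHR, spelled TTTGAA or TTCGAA on either strand, stood in 37 of the 47 (78.7%), against 21.7% of 27025 genes with such windows. A CCAAT box, CCAAT on either strand, stood in 35 (74.5%, against 41.1% of all genes), and both elements stood in 33 (70.2% against 8.61%). A CHR within 60 bases of the start was found in 32 (68.1% against 6.79%). An E2F word, spelled TTTCCCGC, TTTGGCGC, TTTCGCGC or TTTGCCGC, was found in 4 (8.51% against 2.60%). Each kind was counted by itself, so neighbouring elements could share end bases, and a match is a description of the letters, not of binding. The stretches below, from 150 bases before to 30 bases after the start, belong to the 4 genes with the smallest p among those with a CHR, and capitals mark the CHR and the CCAAT boxes as read on the gene's strand, where TTCAAA and ATTGG are the reverse-strand spellings.

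Ckap2: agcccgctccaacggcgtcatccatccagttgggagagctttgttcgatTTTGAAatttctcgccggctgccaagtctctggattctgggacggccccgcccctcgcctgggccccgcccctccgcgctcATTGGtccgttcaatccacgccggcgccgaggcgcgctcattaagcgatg
Depdc1a: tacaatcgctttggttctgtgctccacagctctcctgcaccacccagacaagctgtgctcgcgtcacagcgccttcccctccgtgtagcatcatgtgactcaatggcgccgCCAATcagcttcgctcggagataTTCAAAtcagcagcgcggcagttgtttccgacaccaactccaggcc
Cenpf: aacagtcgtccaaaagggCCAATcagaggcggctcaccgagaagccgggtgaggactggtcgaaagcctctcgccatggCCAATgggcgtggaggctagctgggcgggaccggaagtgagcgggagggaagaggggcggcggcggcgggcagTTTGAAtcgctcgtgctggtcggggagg
Cdc20: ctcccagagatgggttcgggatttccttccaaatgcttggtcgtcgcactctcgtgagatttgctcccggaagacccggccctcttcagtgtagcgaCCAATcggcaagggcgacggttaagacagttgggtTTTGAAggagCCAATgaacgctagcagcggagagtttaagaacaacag

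The Ckap2 stretch lies at chr8:22185790-22185969 on the minus strand, Depdc1a at chr3:159495283-159495462 on the plus strand, Cenpf at chr1:189688057-189688236 on the minus strand and Cdc20 at chr4:118437314-118437493 on the minus strand. Counted from the start, the first base of the CHR is at -16 in Depdc1a and at -18 in Cdc20, each with a CCAAT box upstream of it. In Cenpf the CHR begins at 3, downstream of a pair of CCAAT boxes. In Ckap2 it begins at -101, and the CCAAT box lies downstream of it. Bub3 and Spc25, which are set apart in the results below, hold a CHR and CCAAT boxes as well.

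The libraries also differed in depth and in exocrine and mitochondrial RNA. Ide itself was at 39.2, 19.5, 20.3, 28.3 and 27.5 CPM (counts relative to library size, scaled by the TMM method) in Ide+/+ replicates 1 to 5 and at 0.167, 0.285 and 0.367 CPM in Ide-/- replicates 1 to 3. It fell by 6.74 on the log2 scale (SE 0.39, edgeR adjusted p = 6.2e-06), with 4 to 7 counts left per Ide-/- library. Total counts were 19277269 to 33371642 across the Ide+/+ libraries, against 7143415 to 17445935 across the Ide-/- libraries, with Ide-/- replicate 3 the shallowest. A list of 22 acinar markers, genes of the enzyme-secreting cells around the islets, took 20.7% to 35.0% of counts across the Ide+/+ libraries, against 0.601% to 1.27% across the Ide-/- libraries. Mitochondrial transcripts took 0.512% to 9.43% of counts across the Ide+/+ libraries, lowest in replicate 1, against 9.81% to 28.2% across the Ide-/- libraries. Neither share overlapped between the groups, so the design cannot tell a change of genotype from a change of exocrine or mitochondrial RNA. The main counts are therefore also given with libraries scaled to 26 endocrine genes (granins, prohormone convertases, islet transcription factors and channels), called endocrine scaling below. Ide+/+ replicate 1 had 692 counts of Xist, from the inactive X chromosome, and 0 of the Y-linked Ddx3y. The other 7 libraries had 0 to 11 and 503 to 2139. The labels give all mice as female, which these transcripts match in Ide+/+ replicate 1 and go against in the other 7 libraries. Ide+/+ replicates 2 and 3 differed from each other by more than sampling noise, with a chi-square per degree of freedom of 5.64, but by far less than any other pair within a group (55.6 to 682). What these 2 libraries share is not in the labels, so the main results count them as 2 samples and the main count is also given with them as 1.

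Mitotic genes rose together in Ide-/- islets. Of the 54, 53 passed the low-count filter, 50 were called higher and 0 lower at an adjusted p of 0.05 (edgeR quasi-likelihood test), where 10.4% of all 16266 tested genes were called higher and 10.6% lower. No tested member had a negative log2 fold change, 0 were lower at an unadjusted p under 0.05, and DESeq2 and limma-voom also called 0 lower. The median log2 fold change of the 53 was 1.73, a 3.33-fold rise, against a median of -0.01 over all tested genes. In 48 of the 53 every Ide-/- library lay above every Ide+/+ library, as in 17.4% of all tested genes, and in 0 every one lay below, as in 15.6% of all genes. Relative to endocrine RNA, 47 were higher and 0 lower (6.03% and 8.55% of all genes), with a median of 1.72 against -0.06 over all genes. The endocrine count was 29 without Ide-/- replicate 1 and 29 with 6 hormone genes as the reference. The share of all genes was not counted under these settings, so these counts have no background beside them. The 3 genes not called with TMM scaling were Bub3, Spc25 and Kif4, and endocrine scaling added Plk4, Mad2l1 and Kifc1.

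The count was also taken without the libraries that stood apart. Without Ide+/+ replicate 1, 50 members were higher and 0 lower (13.4% and 13.3% of all genes). Without that library and Ide-/- replicate 3 together, 51 were higher and 0 lower (8.99% and 9.31% of all genes). Against only Ide+/+ replicates 2 and 3, the controls with the lowest acinar share, 48 were higher and 0 lower (11.8% and 12.4% of all genes), but those 2 libraries are close to each other and may not be independent. With their mean taken as 1 sample beside the other 3 controls, 50 were higher and 0 lower (8.72% and 10.4% of all genes). Relative to endocrine RNA 46 were then higher, with the share of all genes not counted. With that mean and TMM scaling, Plk4 lost its call and Kif4 gained one. Without Ide-/- replicate 1, 2 or 3, the members called higher were 35, 36 and 43 (5.08%, 4.61% and 4.07% of all genes). In every fit that left out 1 library, 34 members were called. The share of all genes called in every such fit was not counted, so the 34 have no background beside them. Besides members named with their own losses below, Ncaph, Aurkb and Kif23 were not called without Ide-/- replicate 1 or 2, Melk without 1 or 3, Kif18a without 2 or 3, and Ttk without any Ide-/- library or Ide+/+ replicate 4. Mad2l1 was not called without Ide-/- replicate 1 or 2 or Ide+/+ replicate 4. Limma on log2(TPM + 1) called 52 higher and 0 lower (36.8% and 2.53% of all genes). A further edgeR fit had the acinar share beside genotype as a second term, and it called 0 members, and the median log2 fold change of the members was 0.62 with a median SE of 0.81. In it 8 of the 53 members had an unadjusted p under 0.05, 7 of them higher. Over all 16266 tested genes, 2341 had such a p, in either direction. A positive log2 fold change was seen in 34 of the 53, and 1 gene of the whole table was called higher.

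**Figure D1:**
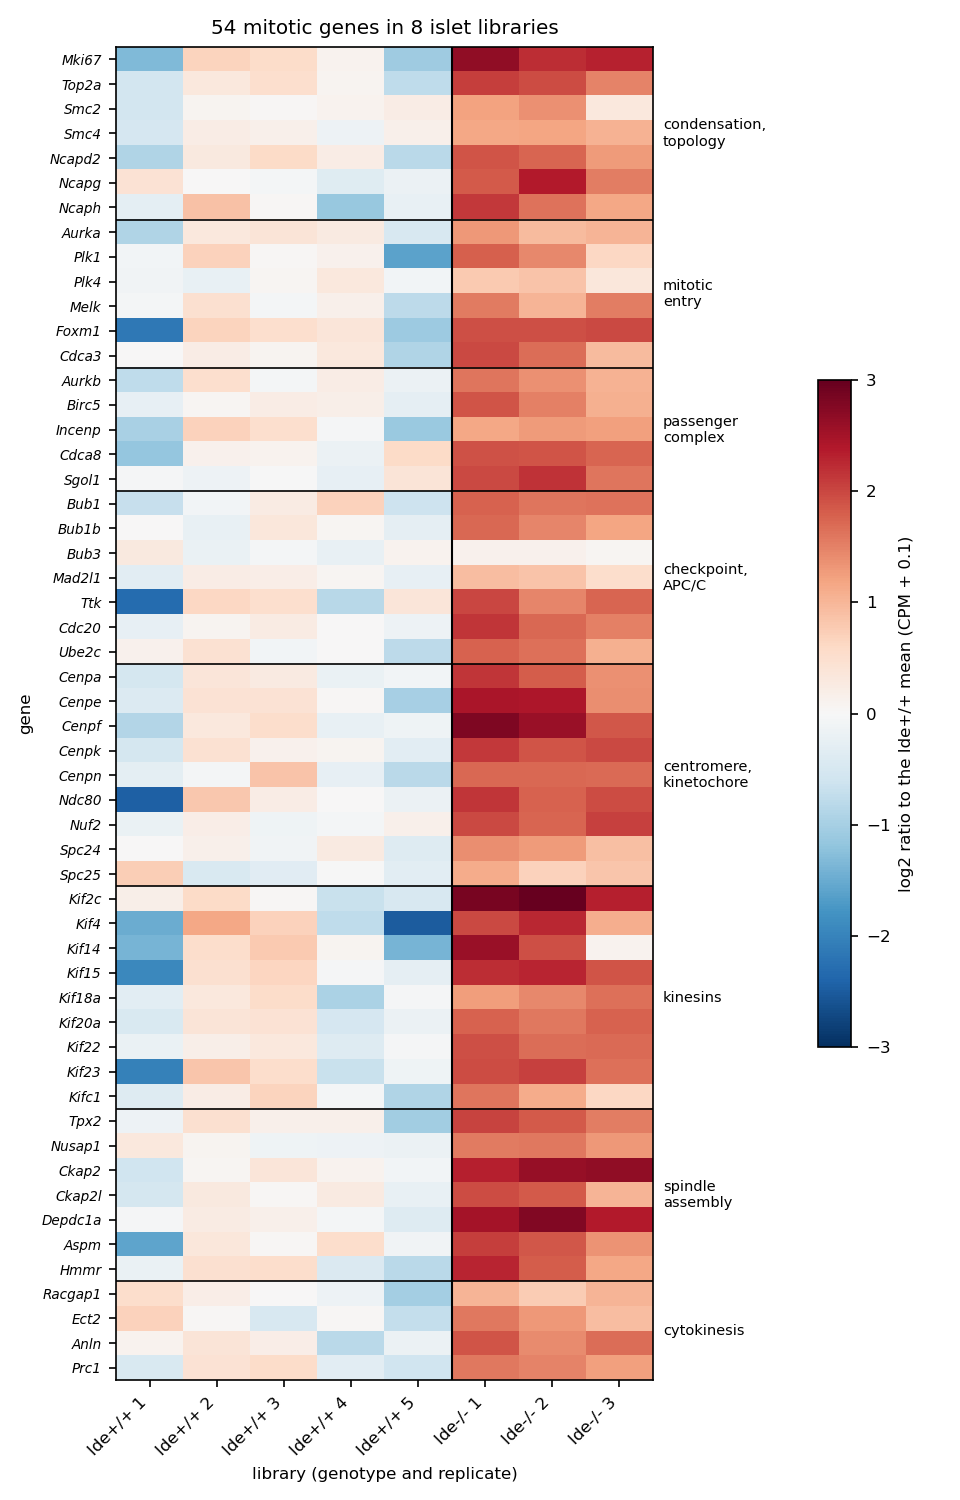
Each row is a gene of the set and each column a library, and the colour gives the log2 ratio of its TMM-scaled CPM to the Ide+/+ mean (pseudocount 0.1 CPM), with lines between the role groups. The 3 Ide-/- columns are red in nearly every row, Bub3 is near white throughout, and Ide+/+ replicates 1 and 5 hold most of the blue cells.

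The genes of chromosome compaction and topology all rose, 7 of 7, with a median of 1.73. Mki67 (ENSMUSG00000031004; GRCm38 chromosome 7, 135689784 to 135716361, minus strand) encodes Ki-67, a coat of mitotic chromosomes and the standard marker of cycling cells. Its level was 1.40, 5.88, 5.47, 3.95 and 1.72 CPM in Ide+/+ replicates 1 to 5 and 23.7, 17.5 and 18.8 CPM in Ide-/- replicates 1 to 3. The groups were far apart, with Ide+/+ replicates 1 and 5 lowest, and the log2 difference was 2.36 (SE 0.37, adjusted p = 0.0017). Top2a, the topoisomerase that untangles sister chromatids, was 4.11, 7.59, 8.53, 6.36 and 3.54 CPM in the Ide+/+ libraries, against 25.6, 23.6 and 17.0 CPM in the Ide-/- libraries. It rose by 1.84 on the log2 scale (SE 0.27, adjusted p = 0.0013), with no overlap. The condensin subunits rose by 1.05 to 2.10. Ncapg and Ncaph, of condensin I only, rose by 2.10 (SE 0.30) and 1.73 (SE 0.43), and Ncapd2, of the same complex, by 1.64 (SE 0.31). Smc2 and Smc4, the ATPase core that condensin I and II share, rose by 1.05 (SE 0.25) and 1.13 (SE 0.19). The Smc2 call was lost without Ide-/- replicate 1 (adjusted p = 0.063) or 2 (adjusted p = 0.087).

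Regulators of mitotic entry rose in 6 of 6 cases, with a median of 1.42. Foxm1, the transcription factor of the G2 and M programme, was 0.00, 0.611, 0.533, 0.471 and 0.107 CPM in the Ide+/+ libraries, against 1.59, 1.59 and 1.65 CPM in the Ide-/- libraries. The Ide-/- libraries were nearly equal and all above the controls, and the log2 difference was 1.96 (SE 0.51, adjusted p = 0.020), which was no longer called without any 1 of them. Cdca3, an F-box protein that triggers mitotic entry, rose from 1.70 ± 0.49 (SD, n = 5) to 5.34 ± 1.83 CPM (SD, n = 3), and the kinase gene Melk from 0.630 ± 0.21 to 1.82 ± 0.38 CPM. The spindle pole kinase gene Aurka and the mitotic kinase gene Plk1 rose by 1.09 (SE 0.32, adjusted p = 0.032) and 1.39 (SE 0.42, adjusted p = 0.037). Both calls were lost without any 1 of several libraries (Aurka without Ide+/+ replicate 4 or 5 or any Ide-/- library, Plk1 without any of Ide+/+ replicates 3 and 4, and Ide-/- replicates 1 and 2). Plk4, the kinase of centriole duplication, rose least in this group, at 0.70 (SE 0.22, adjusted p = 0.040). With endocrine scaling its adjusted p was 0.121, and it was also uncalled without 1 of 5 libraries (Ide+/+ replicates 2, 3 and 5, Ide-/- replicates 1 and 2).

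The chromosomal passenger complex, which corrects faulty attachments of chromosomes to the spindle, rose as a whole. Its kinase Aurkb rose by 1.41 (SE 0.34), survivin (Birc5) by 1.57 (SE 0.25), borealin (Cdca8) by 1.91 (SE 0.30) and the scaffold Incenp by 1.18 (SE 0.39). The 4 genes rose between 2.26-fold and 3.76-fold. Cdca8 was 0.601, 1.60, 1.60, 1.30 and 2.25 CPM in the Ide+/+ libraries, against 5.85, 5.69 and 5.13 CPM in the Ide-/- libraries, where the lowest Ide-/- value is more than any control value. The Incenp call was close to the threshold (adjusted p = 0.049) and was lost without Ide+/+ replicate 4 or 5 or any Ide-/- library. Sgol1, encoding shugoshin, which shields centromeric cohesin until anaphase, rose from 0.721 ± 0.15 to 3.03 ± 0.60 CPM (on the log2 scale 2.11, SE 0.29, adjusted p = 9.3e-04).

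Of the spindle checkpoint and the anaphase-promoting complex (APC/C), 6 of 7 genes rose and Bub3 was not called. The checkpoint kinase genes Bub1 and Ttk rose by 1.77 (SE 0.37) and 1.83 (SE 0.53), and Bub1b, encoding the inhibitor BubR1, by 1.58 (SE 0.30). Mad2l1, whose product Mad2 holds back the APC/C, rose by 0.78 (SE 0.21, adjusted p = 0.024), and its adjusted p was 0.051 with endocrine scaling. Cdc20, the APC/C activator that Mad2 binds, was 1.70, 2.14, 2.42, 2.06 and 1.82 CPM in the Ide+/+ libraries, against 9.36, 6.96 and 5.96 CPM in the Ide-/- libraries. That is a rise of 1.86 on the log2 scale (SE 0.23, adjusted p = 6.0e-04), and the control values were close to each other. Ube2c, the ubiquitin-conjugating enzyme of the APC/C, rose from 1.74 ± 0.52 to 5.20 ± 1.27 CPM. Bub3, a carrier of Bub1 and BubR1 that also has roles outside mitosis, was 43.3, 30.9, 33.7, 30.3 and 38.2 CPM in the Ide+/+ libraries, against 38.8, 38.4 and 36.9 CPM in the Ide-/- libraries. These groups overlapped, and the log2 difference was 0.11 (SE 0.19, adjusted p = 0.70). On log2(TPM + 1) values, where the median of all genes was 0.50, Bub3 was at 1.15 and was called, while the median of the members was 1.30.

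**Figure D2:**
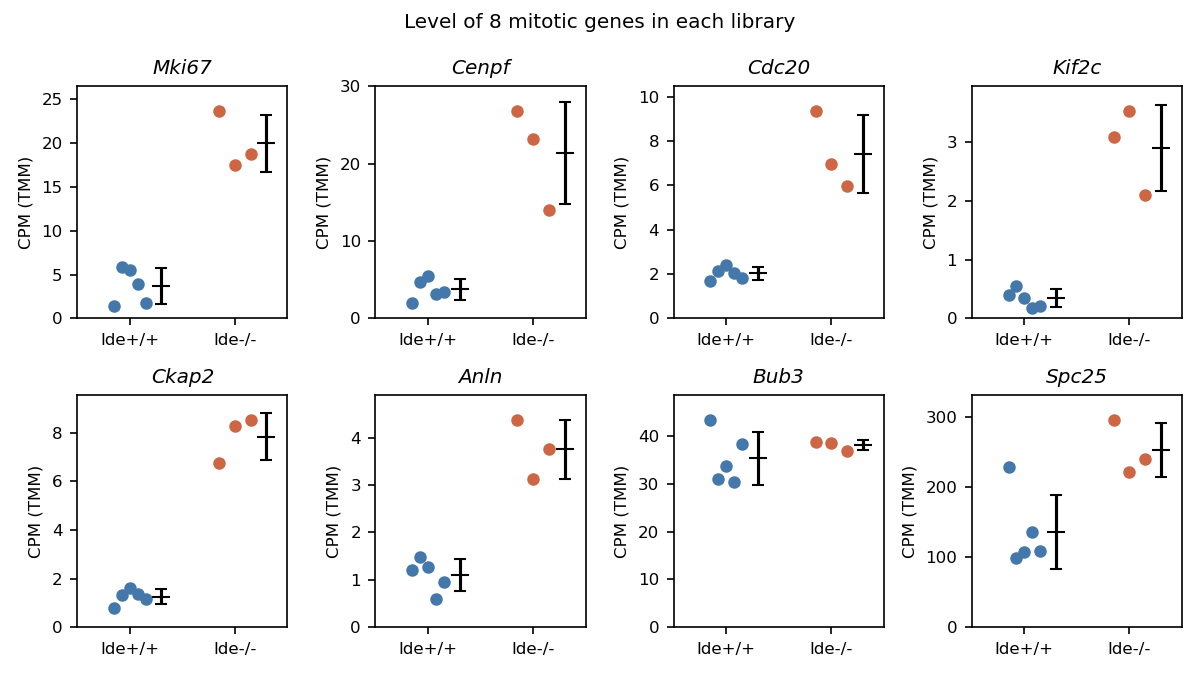
Points are TMM-scaled CPM of single libraries, blue for Ide+/+ (n = 5) and orange for Ide-/- (n = 3), and bars give the mean and SD of each group. Mki67, Cenpf, Cdc20, Kif2c, Ckap2 and Anln do not overlap between the groups, Bub3 does, and Spc25 overlaps through Ide+/+ replicate 1 at 228 CPM.

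Centromere and kinetochore genes rose in 8 of 9 cases, with the highest median of the 8 role groups, 1.94. Cenpf, a large protein of the outer kinetochore, was 2.00, 4.73, 5.44, 3.18 and 3.43 CPM in the Ide+/+ libraries, against 26.8, 23.1 and 14.0 CPM in the Ide-/- libraries. Ide-/- replicate 3 was well below the other 2 yet above all controls, and the log2 difference was 2.47 (SE 0.29, adjusted p = 5.6e-04). Cenpe, the kinesin that carries chromosomes to the spindle equator, rose by 2.16 (SE 0.33), and Cenpa, the histone H3 variant that marks centromeres, by 1.82 (SE 0.25). Cenpk and Cenpn, of the inner kinetochore, rose by 2.01 (SE 0.25) and 1.76 (SE 0.37). The Ndc80 complex, the main microtubule anchor, is built from equal parts of the proteins of Ndc80, Nuf2, Spc24 and Spc25. Ndc80, Nuf2 and Spc24 rose by 1.94 (SE 0.44), 2.01 (SE 0.25) and 1.22 (SE 0.21). Spc25 had a log2 fold change of 0.89 (SE 0.30) and was not called (adjusted p = 0.052). Without Ide+/+ replicate 1 it was called (1.16, adjusted p = 0.0023).

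Spc25 was out of proportion to its partners in level. Per transcript length, in TPM (transcripts scaled to a fixed total per library), Spc25 was at 80.1, 89.7, 93.2, 72.9 and 45.1 across the Ide+/+ libraries, against 358, 252 and 223 across the Ide-/- libraries. Ndc80 was at 0.02 to 0.88 TPM in Ide+/+ and 2.31 to 3.31 TPM in Ide-/-, Nuf2 at 0.23 to 0.74 and 2.55 to 3.23 TPM, and Spc24 at 1.39 to 4.86 and 8.71 to 13.3 TPM. The mean Spc25 level was thus 60.3 times the mean of its 3 partners in Ide+/+ and 48.6 times in Ide-/- islets. Spc25 alone made up 57.3% of the summed TPM of the 54 genes in Ide+/+ and 52.8% in Ide-/-. Bub3 was the second most abundant member, at 12.8 ± 4.60 TPM (SD, n = 5) and 28.7 ± 4.78 TPM (SD, n = 3). The other 52 genes had mean levels of 0.036 to 5.44 TPM in Ide+/+, with a median of 0.482, and of 0.253 to 17.8 TPM in Ide-/-, with a median of 2.68. In Ide+/+ 38 of the 54 had a mean under 1 TPM, and in Ide-/- 9 did. TPM was higher in Ide-/- for most tested genes, with a median log2(TPM + 1) difference of 0.50, so this shift is not particular to the set. The order of levels within the set was similar in both genotypes, with a Spearman rho of 0.95 between the group means over the 54 genes, which come from the same libraries and are not independent.

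**Figure D3:**
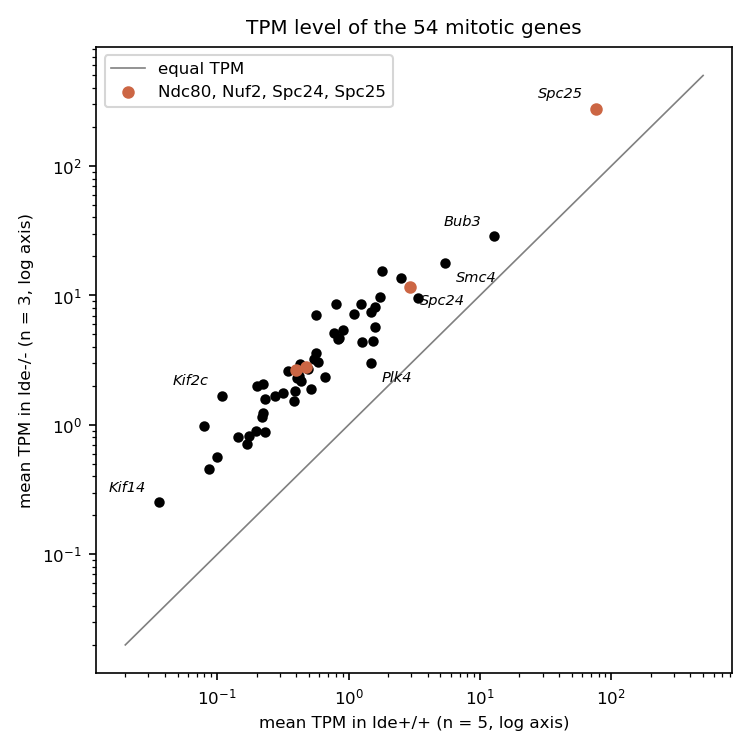
Each point is a gene, with its mean TPM in Ide+/+ on the horizontal and in Ide-/- on the vertical axis (both log axes), and the 4 genes of the Ndc80 complex in orange. All points lie above the line of equal TPM, most run parallel to it, and Spc25 and Bub3 sit apart at the upper right. Most tested genes outside the set were also higher in TPM, with a median difference of 0.50 over all genes on log2(TPM + 1).

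Mitotic kinesins, motors that build the spindle or move along it, rose in 7 of 8 tested cases. Kif2c, which depolymerises microtubules at faulty attachments, had the largest fold change of the whole set. It was 0.401, 0.560, 0.355, 0.177 and 0.215 CPM in Ide+/+, from 2 to 22 counts, and 3.09, 3.54 and 2.11 CPM in Ide-/- libraries, from 23 to 111 counts. The fold was 7.91 (log2 fold change 2.98, SE 0.38, adjusted p = 6.4e-04). Kif22, a chromosome arm motor, rose from 2.19 ± 0.44 to 7.71 ± 0.80 CPM, and Kif20a, a motor of the central spindle, from 1.95 ± 0.64 to 6.60 ± 0.47 CPM. Kif15, Kif18a and Kif23 rose by 2.16 (SE 0.41), 1.49 (SE 0.36) and 1.89 (SE 0.46). Kifc1, a minus-end motor that clusters spindle poles, rose by 1.21 (SE 0.39, adjusted p = 0.048), a call kept only without Ide+/+ replicate 3 when single libraries were left out. Kif4 had a log2 fold change of 1.79 (SE 0.63) and was not called (adjusted p = 0.061), although DESeq2 and limma-voom called it. Its Ide+/+ values ran from 0.00 to 1.17 CPM and its Ide-/- values from 1.10 to 2.60 CPM, so the groups overlapped. Kif14, which helps complete cytokinesis, failed the low-count filter, with 0, 11, 10, 3 and 0 counts in Ide+/+ and 53, 22 and 2 counts in Ide-/- libraries.

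Spindle assembly factors rose in 7 of 7 cases, with a median of 1.81. Ckap2, a microtubule stabiliser, had the smallest p of the set. It was 0.802, 1.32, 1.64, 1.35 and 1.18 CPM in the Ide+/+ libraries, against 6.74, 8.26 and 8.53 CPM in the Ide-/- libraries, a 6.00-fold rise (log2 fold change 2.59, SE 0.24, adjusted p = 2.0e-04). Depdc1a rose almost 7-fold, from 0.309 ± 0.065 to 2.30 ± 0.35 CPM (on the log2 scale 2.81, SE 0.32, adjusted p = 5.0e-04). Nusap1, a microtubule bundling protein of the spindle, rose by 1.54 (SE 0.23), and Tpx2, the activator of Aurora A, by 1.81 (SE 0.28). Aspm, a spindle pole protein, rose from 1.39 ± 0.63 to 5.05 ± 1.27 CPM, and Hmmr, which also binds the spindle, from 1.96 ± 0.80 to 7.18 ± 2.73 CPM. Ckap2l, a relative of Ckap2, rose by 1.70 (SE 0.28).

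The 4 cytokinesis genes all rose, with the smallest role median, 1.39. Anln, the anillin scaffold of the contractile ring, was 1.20, 1.48, 1.28, 0.589 and 0.966 CPM in the Ide+/+ libraries, against 4.37, 3.13 and 3.76 CPM in the Ide-/- libraries (log2 fold change 1.73, SE 0.31, adjusted p = 0.0033). Prc1, which bundles the central spindle, rose from 3.48 ± 1.34 to 9.58 ± 1.19 CPM. Ect2, the exchange factor that activates RhoA at the equator, rose by 1.37 (SE 0.31), which was no longer called without Ide-/- replicate 1. Racgap1, which recruits Ect2 to the central spindle, rose by 0.95 (SE 0.27, adjusted p = 0.030), which was no longer called without Ide+/+ replicate 3 or 4 or any Ide-/- library.

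**Figure D4:**
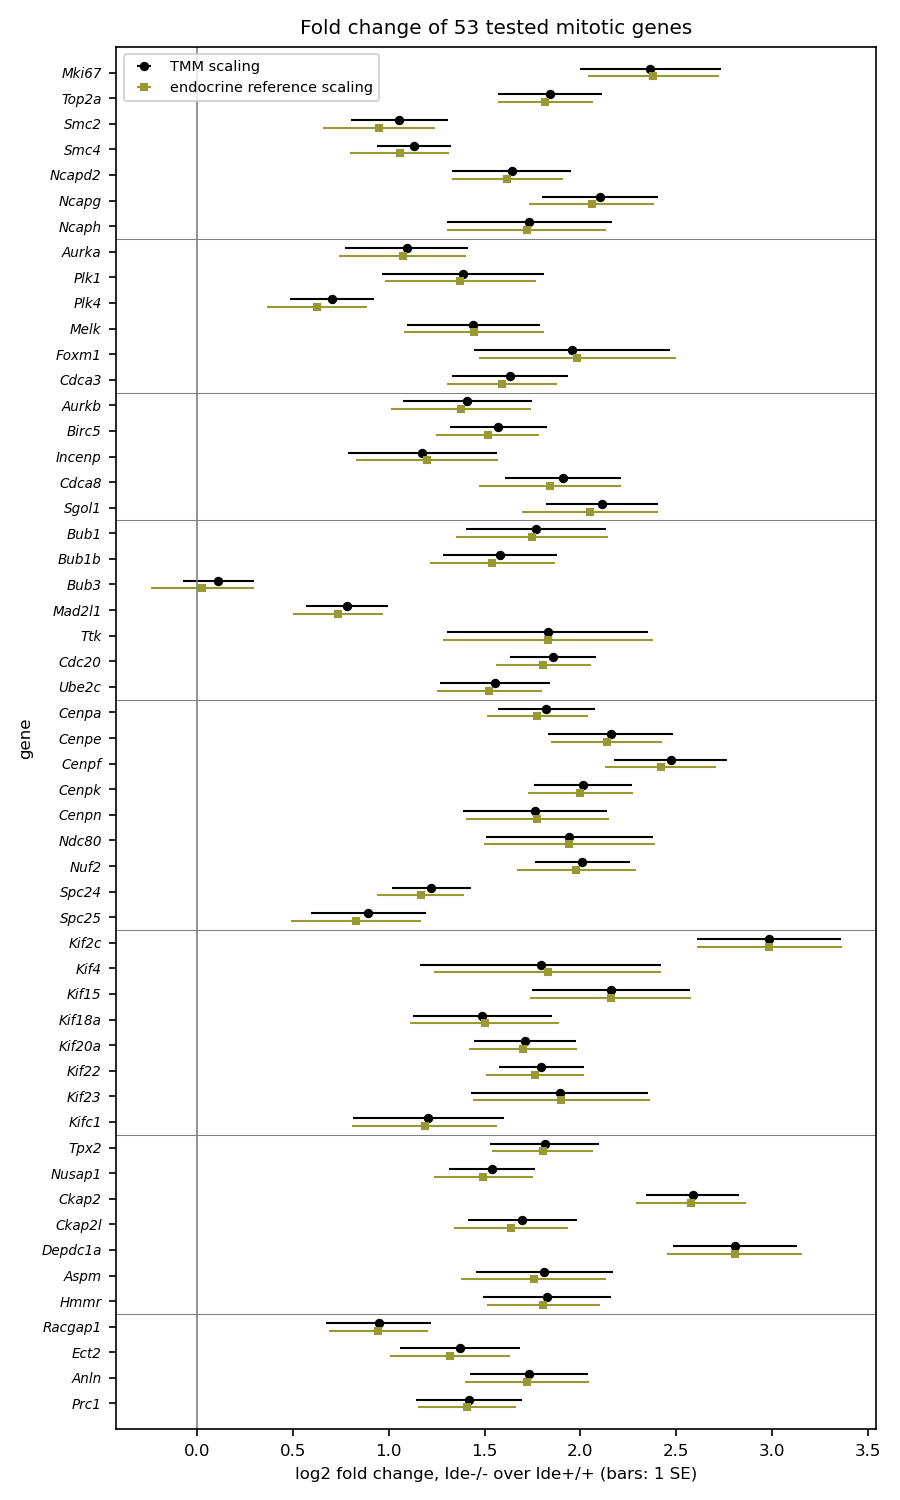
Log2 fold changes of the 53 tested genes, Ide-/- over Ide+/+, with bars of 1 SE, for TMM scaling (black circles) and endocrine scaling (olive squares), in the order of the role groups. With TMM scaling all genes but Bub3, at 0.11, lie between 0.70 and 2.98, and no gene is below 0 under either scaling.

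The rise was fairly even across the set. The middle 50% of the 53 log2 fold changes lay between 1.41 and 1.91, that is between 2.66-fold and 3.76-fold. Their SD was 0.52 against 1.05 for all tested genes. The typical SE of a single gene was 0.30. Because the members were chosen with earlier results of these data known, the smaller SD is a description and not a test. More than 2-fold rises were seen in 48 of the 53 and more than 4-fold rises in 11. Over all 16266 tested genes these numbers were 1589 and 198. Within the set, free of any library scaling, the share of each gene was taken in the summed TPM of the 52 genes without Bub3 and Spc25. In Ide-/- libraries 5 of these shares were higher and 3 lower without overlap between the groups, and the others overlapped. Kif2c went from 0.256% ± 0.099 to 0.755% ± 0.18 and Ckap2 from 1.18% ± 0.26 to 3.44% ± 1.11 of that sum (SD, n = 5 and n = 3). Smc4 went from 12.2% ± 1.32 to 8.16% ± 0.39 and Plk4 from 3.55% ± 1.30 to 1.40% ± 0.20. These genes were picked for their shares after the values were seen.

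The level differed between the Ide-/- libraries. The median ratio of the 53 genes to their Ide+/+ mean was 1.90, 1.67 and 1.38 on the log2 scale in Ide-/- replicates 1, 2 and 3, and 52, 51 and 49 of the 53 exceeded every Ide+/+ library there. Replicate 3, whose library was the shallowest and had the highest share of mitochondrial transcripts (28.2%), held the lowest Ide-/- value of 36 genes, and replicate 1 the highest of 37. The part of depth and RNA makeup in this was not tested. These counts of genes per library, and those for the Ide+/+ libraries below, were taken over the set only. The same counts over all genes were not taken, so they have no background beside them. With endocrine scaling the medians were 1.75, 1.57 and 1.48. Among Ide+/+ libraries the medians were -0.32, 0.31, 0.21, -0.00 and -0.26 for replicates 1 to 5, and replicates 1 and 5 held the lowest Ide+/+ value of 22 and 20 genes.

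Set against endocrine RNA, 4 of the 5 control libraries were nearly level. The summed TPM of the 52 genes without Bub3 and Spc25, a choice made after their levels were seen, was 17.2, 72.1, 68.1, 37.6 and 24.4 across the Ide+/+ libraries, against 269, 239 and 152 across the Ide-/- libraries. Per 1000 TPM of the 26 endocrine genes it was 10.2, 21.7, 21.6, 21.4 and 22.8 across the Ide+/+ libraries, against 58.5, 64.1 and 56.7 across the Ide-/- libraries. The second scale brought the controls other than replicate 1 and the Ide-/- libraries each close together, and the ratio of the group means was 3.06. Ide+/+ replicate 1, with the lowest level on both scales, also had the highest acinar share, 35.0%, while replicates 2 to 5 had shares of 20.7%, 20.9%, 32.6% and 31.8%. The part of exocrine RNA in these levels was not tested. Relative to the TPM of 6 hormone genes, the ratio of the group means was 2.37. No library had an acinar share between 1.27% and 20.7%.

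**Figure D5:**
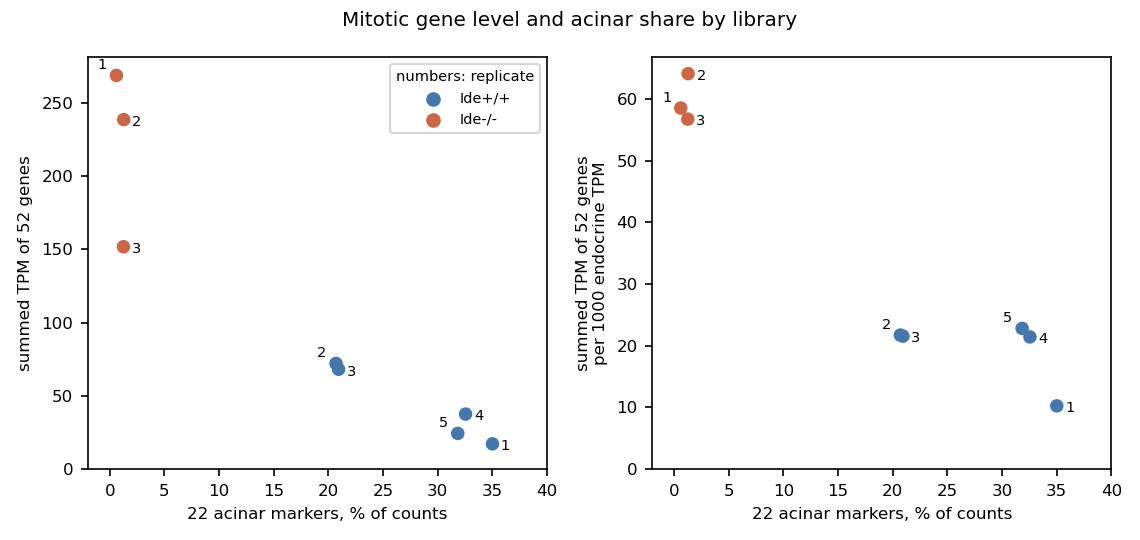
Each point is a library, numbered by replicate, with the percent of its counts from 22 acinar markers on the horizontal axis and, on the vertical axis, the summed TPM of 52 mitotic genes (left) or that sum per 1000 TPM of 26 endocrine genes (right). On the right Ide+/+ replicates 2 to 5 lie between 21.4 and 22.8, replicate 1 at 10.2, and the Ide-/- libraries between 56.7 and 64.1.

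Mitotic genes outside the set, drawn from 5 further lists, rose in part. Of 115 tested, 51 were higher and 2 lower (10.4% and 10.6% of all genes), with 5 lower at an unadjusted p under 0.05. With endocrine scaling 40 were higher and 0 lower (6.03% and 8.55% of all genes). The count of 51 was 27 without Ide-/- replicate 1, 28 without replicate 2 and 34 without replicate 3 (5.08%, 4.61% and 4.07% of all genes). Without Ide+/+ replicate 4 it was 33, where 993 genes of the whole table were higher. The list of further spindle, kinesin, mitotic cyclin and cytokinesis genes had 24 of 36 higher (22 with endocrine scaling), with a median of 1.36. In it, Ccnb1, the mitotic cyclin B1, rose by 1.88 (SE 0.23), the exchange factor gene Arhgef39 by 2.37 (SE 0.26) and Shcbp1 by 2.11 (SE 0.27). Further kinetochore and centromere genes had 15 of 32 higher (12 with endocrine scaling), with a median of 0.95, among them Zwilch of the checkpoint RZZ complex (2.02, SE 0.27) and Cenpw (1.55, SE 0.26). Cohesin and separation genes had 6 of 18 higher (3 with endocrine scaling) and a median of 0.20. The S phase cohesin factors Esco2 and Cdca5 rose by 1.60 (SE 0.28) and 1.85 (SE 0.35), and Sgo2a, the second shugoshin, by 1.76 (SE 0.45). APC/C subunits and regulators had 3 of 17 higher and a median of 0.03, namely Anapc15 (0.97, SE 0.19), the ubiquitin enzyme gene Ube2s (0.99, SE 0.30) and the APC/C inhibitor gene Fbxo5 (0.87, SE 0.27). With endocrine scaling Anapc15 alone of the 17 was called higher, where 6.03% of all genes were. The APC/C list as a whole was thus near the share of all genes. With Ide+/+ replicates 2 and 3 as 1 sample, Ube2s and Fbxo5 were not called. Of 12 MuvB, B-Myb and DREAM genes 3 were higher and 2 lower. The pocket protein gene Rbl1 (p107) rose by 1.20 (SE 0.22), while Rbl2 (p130), its relative of resting cells, fell by 0.62 (SE 0.20, adjusted p = 0.042). Tfdp1, a partner of E2F factors, rose by 0.93 (SE 0.18) and Tfdp2, another, fell by 0.97 (SE 0.30, adjusted p = 0.041). E2f4, an E2F factor of the DREAM complex, rose by 0.76 (SE 0.24, adjusted p = 0.043). With endocrine scaling neither fall was called (adjusted p = 0.071 for Rbl2 and 0.073 for Tfdp2), nor was the rise of E2f4 (adjusted p = 0.061). Rbl2 and E2f4 were named after their values were seen.

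Among 10 lists of cell type markers, 1 gene was called higher in Ide-/- islets, the delta cell hormone Sst (1.36, SE 0.44, adjusted p = 0.047), and it was not with endocrine scaling (adjusted p = 0.081). All 22 acinar markers were lower in Ide-/- islets, with summed TMM-scaled levels of 175820 to 863777 CPM in Ide+/+ and 2920 to 8143 CPM in Ide-/- libraries. Duct markers were lower in 9 of 12 (7 with endocrine scaling), at 1068 to 2785 CPM against 325 to 350 CPM. Macrophage markers were lower in 11 of 13 tested, at 406 to 753 CPM in Ide+/+ and 104 to 180 CPM in Ide-/-. Of 11 lymphocyte markers 3 were tested and all 3 were lower, while Cd3e, Cd3d, Cd4 and Cd8a were at or near 0 in both groups, at most 0.200 CPM in Ide+/+ and 0 in Ide-/- libraries. None of 12 endothelial markers was called, at 110 to 411 and 270 to 380 CPM, and 1 of 11 fibroblast and stellate markers was lower, at 139 to 593 and 246 to 366 CPM. None of 5 tested red blood cell genes was called, at 320 to 1182 and 399 to 516 CPM. Of the endocrine lists, 0 of 12 beta cell markers were called, at 35405 to 138644 and 83760 to 106331 CPM, 1 of 8 alpha cell markers was lower (0 with endocrine scaling), and Sst was the 1 of 6 delta and PP cell markers that was higher. The part of these cell types in the mitotic RNA was not tested, since whole islet RNA does not tie a transcript to its cell.

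Some counts may include reads of other genes. The strand setting of the counting is not given in the sources used here, and 13 of the 54 genes share exonic bases with a gene on the other strand, among them Cdc20 with Elovl1, Ube2c with Tnnc2, Nusap1 with Oip5 and Kif20a with Cdc23. Reads from such pairs cannot be told apart. Expected counts of 12 members were not whole numbers in at least 1 library (tolerance 0.005), in all 8 libraries for Ncapg, Cenpk and Kif20a, so part of their reads was divided among genes by the counting model.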

How the data were processed

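The submitters' processing notes name STAR 2.7.1a, RSEM 1.3.1 and the GRCm38 build. Which annotation release was used is not given in the sources used here. Per sample, the authors deposited 1 table with an expected count per gene, not normalized, and TPM, which the authors' software corrected for transcript length and scaled to a common total. Symbols and positions came from GENCODE M21, which held 55141 of the 55487 identifiers.

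Expected counts were rounded. The main test was the edgeR 4.0.16 quasi-likelihood test (R 4.3.3) with robust dispersion, TMM scaling, the low-count filter (minimum count 10, total 15) and genotype as the only term, over all 8 samples. Benjamini-Hochberg adjustment ran over all 16266 tested genes, and calls were made at 0.05. The SE came from the fold change and the F statistic. CPM was TMM-scaled, and log2 fold changes are Ide-/- over Ide+/+. The endocrine factor of a library is the median ratio of 26 genes to their geometric means. DESeq2 1.42.0, limma 3.58.1 and the other settings in the closing section were alternatives. The steps were tested on simulated counts that lacked the differences in acinar and mitochondrial share between the groups. That test therefore cannot show how these differences affect the scaling or the calls. Genes named were Mki67, Top2a and, per role group, the 3 smallest p, the largest p and untested members, and in each further list up to 3 called genes. The other members are added as counts or fold changes. Total counts of 7143415 to 33371642 per library limit the precision of genes near 1 CPM. Replicate numbers did not pair the samples. Members and lists were chosen with earlier results of these data known.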

Additional observations from a re-analysis of the deposited data

Results flagged for a closer look

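In 77 sets of 5 Ide+/+ values, a value was set apart where its gap to the next was more than 0.71 of the range of the 5 values. Chance alone would pick about 1 in 20 such groups, and 3 were picked, all in Ide+/+ replicate 1. Its Smc2 level was 4.11 CPM, where the other 4 Ide+/+ libraries had 6.29 to 7.08 CPM. Its Spc25 level was 228 CPM, where the others had 99.5 to 136 CPM. Its summed TPM of 52 mitotic genes was 10.2 per 1000 endocrine TPM, where the others had 21.4 to 22.8. Ide+/+ replicate 1 is also the library whose sex-linked transcripts differ from the other 7, and the only library in which they match the female label. Its mitochondrial share, 0.512% of counts, was the lowest of all libraries.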

How the results depend on the processing

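The count of 50 mitotic genes higher in Ide-/- islets was between 47 and 53 under DESeq2, limma-voom, no low-count filter, library totals, TMM without acinar and mitochondrial genes, endocrine scaling and limma on log2(TPM + 1) or log2(TPM + 0.1), and 35 to 50 when single libraries were left out. It was 28 with the replicate block and 0 with an acinar covariate. No setting called a member lower. Replicate numbers did not pair the samples: the correlations of deviations from the group means were 0.05, 0.01 and -0.09 for numbers 1 to 3, and no Ide-/- library correlated best with its own number. The count relative to endocrine RNA (47) was 41 with the replicate block, 29 with hormone scaling and 29 to 46 with single libraries left out. For these changed endocrine settings the share of all genes was not counted. Library totals moved the median of all genes to 1.22 and of the members to 2.88.

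Over all genes, 1699 were higher and 1727 lower. The counts were 8405 and 281 with library totals, 5987 and 412 on log2(TPM + 1), 4772 and 385 on log2(TPM + 0.1), 465 and 706 with the replicate block and 1 and 10 with the acinar covariate. With endocrine scaling 981 were higher. Leaving out single libraries gave 694 to 2141 higher and 809 to 2139 lower. Of the other mitotic genes, 51 were higher, with 102 under library totals, 83 and 79 on log2(TPM + 1) and log2(TPM + 0.1), 17 with the replicate block, 0 with the acinar covariate and 27 to 54 without single libraries. The 2 lower became 1 without the low-count filter and 0 with library totals, endocrine scaling, either TPM setting, the acinar covariate or the replicate block, and 0 to 2 without single libraries.

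With the acinar covariate 19 members changed sign, none of them called: Mki67 (-0.23), Ncapd2 (-0.14), Ncaph (-0.76), Aurka (-0.32), Plk1 (-0.12), Foxm1 (-0.76), Incenp (-1.36), Mad2l1 (-0.032), Ttk (-1.47), Cenpn (-0.11), Ndc80 (-0.64), Kif4 (-3.58), Kif15 (-0.42), Kif18a (-0.45), Kif20a (-0.017), Kif23 (-1.59), Kifc1 (-0.66), Hmmr (-0.14) and Prc1 (-0.53). Tfdp2 was at 0.43 with library totals and 0.58 with the acinar covariate. The acinar shares of the genotypes do not overlap, so the effects of share and genotype cannot be told apart. For the other changes the cause was not tested. The fits on Ide+/+ replicates 2 and 3 against Ide-/-, with those 2 averaged as 1 sample, and without Ide+/+ replicate 1 and Ide-/- replicate 3 together were chosen after seeing the data. The weakest genes rest on few counts: Kif14, Foxm1 and Ttk had 0 counts in Ide+/+ replicate 1 and 2, 18 and 17 counts in Ide-/- replicate 3.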

Other observations

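The gene order around Spc25 was looked at because of its level, after that level was seen. Spc25 (chromosome 2, 69193895 to 69206194, minus strand) lies 4878 bases from G6pc2 (69211073 to 69227841, plus strand), the islet glucose-6-phosphatase gene, and the genes are transcribed away from each other. G6pc2 was at 339, 292, 283, 220 and 73.0 TPM in Ide+/+ and at 673, 412 and 389 TPM in Ide-/- libraries. By TMM scaling G6pc2 had 612 ± 420 CPM in Ide+/+ (SD, n = 5) and 625 ± 133 CPM in Ide-/- (SD, n = 3) and was not called (log2 fold change 0.03, SE 0.47, adjusted p = 0.97). On the other side of Spc25, Nostrin, 4564 bases away, rose by 1.04 (SE 0.34, adjusted p = 0.048), and Cers6, 79612 bases away, was not called (-0.08, SE 0.16, adjusted p = 0.74). Beyond G6pc2, Abcb11, the bile salt export pump gene, rose by 1.72 (SE 0.35, adjusted p = 0.0064) from 0.820 ± 0.27 to 2.86 ± 0.92 CPM.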
